A study of Mus musculus with 20 samples.

Results

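Bcl2 (ENSMUSG00000057329) encodes a protein of the outer mitochondrial membrane that keeps a cell alive by holding the pore-forming proteins Bax and Bak in check. It was followed here as 1 gene of the 31130 in the normalized count table, in all 20 libraries of cultured mouse nephron progenitor cells (NPCs). Bcl2 was chosen by its readout: its response to the GSK3β inhibitor CHIR99021 (CHIR) differed between control cells and cells that had lost β-catenin. The values in those 2 conditions are therefore given as a description, with no test.

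The libraries came from primary NPCs of embryonic mouse kidney of the Cas9-eGFP genotype, grown in nephron progenitor expansion medium. All cells received a guide RNA (sgRNA) together with mCherry mRNA by lipofection, and mCherry-positive cells were sorted, so each knockout is a mixed pool of edited cells and not a clone. CTRL cells carried Cas9 and a guide against GFP, β-catenin KO cells a guide against Ctnnb1, α-catenin KO cells a guide against Ctnna1, and QCKO (quadruple cadherin knockout) cells guides against Cdh2, Cdh3, Cdh4 and Cdh11. Each was sampled in low CHIR (1.25 µM), in which the progenitor state is kept, and in high CHIR (5 µM), which mimics the inductive Wnt signal. CTRL and β-catenin KO had 3 libraries in each medium, and α-catenin KO and QCKO had 2. A replicate number stands for the date in the sample title and is shared between groups. CTRL and β-catenin KO had replicates 1, 2 and 3, α-catenin KO had replicates 1 and 3, and QCKO had replicates 2 and 3.

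GSK3β marks β-catenin for destruction, so its inhibition lets β-catenin build up and enter the nucleus, where it acts with TCF/LEF factors on Wnt target genes. β-catenin also has a second place of work at the cell membrane, where it joins cadherins to α-catenin and through it to actin. Removing α-catenin or the cadherins disturbs that adhesion complex while β-catenin itself remains, which is the comparison the study was built on. In the developing kidney Bcl2 is known as a survival gene of the early nephron lineage, and mice without it develop small, cystic kidneys.

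Guides against Ctnnb1 define the group on which the description of Bcl2 turns. The study's guide list names 4 Ctnnb1 guides with 3 distinct sequences, since sgRNA5, named for exon 3, and sgRNA6, named for exon 6, are listed with the same bases. Which of them went into each library is not given in the sources used here. The distinct sequences, 5′ to 3′, were these, with sgRNA1 named for exon 2 and sgRNA3 for exon 3.
Ctnnb1 sgRNA1: atgagcagcgtcaaactgcg
Ctnnb1 sgRNA3: agccaagcgctggacattag
Ctnnb1 sgRNA5 and sgRNA6: gagattatgcagtgtcgtga

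In RefSeq (GRCm38.p6) Bcl2 lies on the minus strand of chromosome 1, from base 106538176 to 106714290, with 2 transcripts. The 250 bases before its start, chr1:106714291-106714540, are shown because the level of its RNA is what differed, and capitals mark GGGCGG or its reverse complement CCGCCC, the core of the GC box.
Bcl2 promoter, minus strand: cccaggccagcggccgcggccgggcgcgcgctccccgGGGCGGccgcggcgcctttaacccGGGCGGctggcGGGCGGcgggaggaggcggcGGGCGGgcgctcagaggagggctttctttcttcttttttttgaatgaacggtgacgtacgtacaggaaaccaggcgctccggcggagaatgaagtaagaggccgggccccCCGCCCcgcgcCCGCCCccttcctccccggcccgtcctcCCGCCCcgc
The window was 74.8% G and C, against a median of 52.4% over 32851 RefSeq promoter windows of the same length. It held 7 matches to the GC box letters on either strand, which 32.7% of the windows held at least once and 0.411% held that often. The TCF/LEF core CTTTGA (reverse complement TCAAAG) was not among these bases, and 13.8% of the windows held it. Neither TATAAA (reverse complement TTTATA), held by 12.4% of the windows, nor CCAAT (reverse complement ATTGG), held by 33.9%, was found. No binding was measured in these samples.

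The libraries held 18124772 to 28472412 recovered reads, with a median of 21449823. Bcl2 itself was counted with 138 to 4793 reads per library. In the 7 high CHIR libraries of CTRL, α-catenin KO and QCKO it had 138 to 315 reads, for which the counting error of 1 library is at most 8.51% of its value. In CTRL in low CHIR the 8 nephron progenitor markers with an identifier, of 12 listed, summed to 15680 to 21943 normalized counts, and none of them was at 0 in all libraries of a group. The 8 of 11 markers of the induced nephron went from 3071 to 4117 in CTRL in low CHIR to 19628 to 37992 in high CHIR. These lists fell short of the 80% of members with an identifier that a check needs, so the cell type was not checked beyond these values. Markers of other kidney cell types fell short by more (ureteric epithelium 7 of 13, stroma 2 of 10, endothelium 2 of 8, leukocyte 1 of 8), and their sums lay at 932 to 2146, 5851 to 7119, 340 to 453 and 240 to 362 in CTRL in low CHIR. None of these markers was at 0 in all libraries of a group. Of the targeted genes, Ctnna1 stood at 3564 to 3790 in the 4 α-catenin KO libraries and at 5817 to 11092 in the other 16. Cdh11 in QCKO was below all CTRL libraries of the same medium, at 2519 and 1818 against 3594 to 5112 in low CHIR and at 1004 and 589 against 1883 to 2092 in high CHIR. The QCKO ranges of Cdh2, Cdh3 and Cdh4 RNA did not lie below those of CTRL in high CHIR (1222 and 1236 against 989 to 2439, 3347 and 3481 against 2557 to 3720, and 10276 and 6666 against 7647 to 8840), so the loss of these cadherins could not be checked at the RNA. The study itself reports removal of the targeted cadherins and of α-catenin at the protein, by staining of cultured cells and not in these libraries. Ctnnb1 has no identifier in the tables used here, so β-catenin loss could not be checked at its own RNA.

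In low CHIR Bcl2 was highest in CTRL, α-catenin KO and QCKO. The 3 CTRL libraries in low CHIR held 3342, 3066 and 3837 normalized counts (replicates 1, 2 and 3), a mean of 3415 ± 391 (SD, n = 3). The α-catenin KO libraries in low CHIR held 3490 and 3388 (3439 ± 72.4, SD, n = 2). The QCKO libraries in low CHIR held 4158 and 3709 (3933 ± 317, SD, n = 2). The α-catenin KO values fell inside the CTRL range, and QCKO reached above it in 1 of its 2 libraries.

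In high CHIR the same 3 kinds of cells held little Bcl2 RNA. The CTRL libraries in high CHIR held 231, 147 and 247 normalized counts (209 ± 53.5, SD, n = 3). The α-catenin KO libraries in high CHIR held 256 and 202 (229 ± 38.6, SD, n = 2). The QCKO libraries in high CHIR held 228 and 252 (240 ± 16.5, SD, n = 2). These 7 libraries lay within a narrow band, from 147 to 256, and every one was below every low CHIR library. In bulk samples, fewer cells that express Bcl2 and less Bcl2 RNA per cell cannot be told apart.

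**Figure D1:**
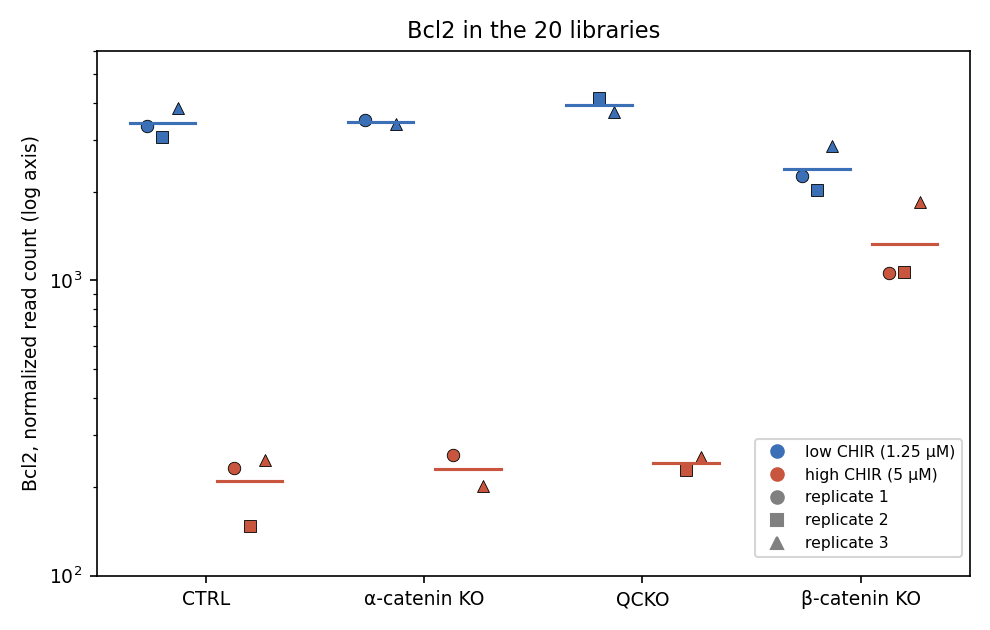
Normalized read count of Bcl2 (log axis) in each of the 20 libraries by knockout, with low CHIR (1.25 µM) in blue, high CHIR (5 µM) in red, the marker shape giving the replicate number and the bar the group mean. In high CHIR the libraries of CTRL, QCKO and α-catenin KO sit between 147 and 256, while the 3 β-catenin KO libraries sit between 1064 and 1844.

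In β-catenin KO, Bcl2 took a middle level in both media. The β-catenin KO libraries in low CHIR held 2257, 2021 and 2855 normalized counts (2378 ± 430.1, SD, n = 3). The β-catenin KO libraries in high CHIR held 1064, 1071 and 1844 (1326 ± 448, SD, n = 3). The low CHIR libraries were below all 7 low CHIR libraries of the other cells, and the high CHIR libraries were above all 7 high CHIR libraries of the other cells. Even so the β-catenin KO ranges in low and high CHIR did not overlap, with the lowest value in low CHIR 1.10 times the highest in high CHIR.

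Sums of cell type markers moved between the media as well. The nephron progenitor sum went from 15680 to 21943 in CTRL in low CHIR to 1483 to 2265 in high CHIR, and from 13894 to 24296 to 7655 to 15384 in β-catenin KO. The sum of the 2 stroma markers with an identifier went from 5851 to 7119 to 1166 to 2024 in CTRL, from 5781 to 6196 to 1414 to 2020 in α-catenin KO, from 6658 to 8324 to 1270 to 1829 in QCKO and from 3875 to 6034 to 2210 to 2780 in β-catenin KO. It was thus lower in high CHIR in all 4 kinds of cells, as Bcl2 was, and β-catenin KO had the highest sums in high CHIR. The 2 genes differed in this, since Tcf21 in high CHIR had a mean of 1695 in β-catenin KO against 648 in CTRL, and Meis1 a mean of 742 against 898. The 2 endothelium markers moved in opposite directions. Plvap went from a mean of 394 to 38.3 in CTRL, from 385 to 50.1 in α-catenin KO, from 388 to 44.8 in QCKO and from 284 to 153 in β-catenin KO. Tek went from a mean of 1.68 to 138 in CTRL, from 6.40 to 238 in α-catenin KO, from 1.88 to 289 in QCKO and from 4.03 to 45.6 in β-catenin KO. The ureteric epithelium sum went from 1211 to 1391 in low CHIR to 1968 to 2274 in high CHIR in QCKO, where the ranges did not overlap, and from 981 to 1733 to 1421 to 2558 in α-catenin KO. The CTRL and β-catenin KO sums with high CHIR were 1131 to 1248 and 1026 to 1531. The genes of this list moved in both directions in QCKO. Gata3 rose there from a mean of 51.5 to 866 and Hoxb7 from 379 to 798, while Sox9 fell from 542 to 142. Cdh1 and Wnt11 also had higher means in high CHIR, and Krt8 and Tfap2b lower ones. The 1 leukocyte marker in high CHIR lay at 281 to 641 in CTRL, 231 to 255 in α-catenin KO, 216 to 234 in QCKO and 265 to 345 in β-catenin KO. The part of these markers' cells in the Bcl2 values was not tested.

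Ordered by mean level, the low CHIR groups came first, in the order QCKO, α-catenin KO, CTRL, β-catenin KO, and the high CHIR groups followed, in the order β-catenin KO, QCKO, α-catenin KO, CTRL. The ranges of CTRL and α-catenin KO overlapped in both media, as did those of QCKO and α-catenin KO in high CHIR. With so few libraries a group, nothing is read from the order of these neighbours. The widest gap between neighbours was that below β-catenin KO in high CHIR, whose lowest library was 4.23 times the highest QCKO library in high CHIR.

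Libraries with the same replicate number can be set against each other. From low to high CHIR, Bcl2 in CTRL changed by -3.85, -4.37 and -3.95 on the log2 scale (normalized count plus 1) in replicates 1, 2 and 3, a mean of -4.06 ± 0.28 (SD, n = 3 pairs), which left 4.81% to 6.92% of the low CHIR level. In β-catenin KO the same differences were -1.08, -0.92 and -0.63, a mean of -0.88 ± 0.23 (SD, n = 3 pairs), which left 47.1% to 64.6% of it. The β-catenin KO difference was smaller in size than that of CTRL in each replicate, by 2.76, 3.45 and 3.32 (mean 3.18 ± 0.37, SD, n = 3). Across all genes, 1793 of 16691 (10.7%) were called by CHIR in CTRL, 3 (0.018%) in β-catenin KO, and 112 (0.671%) for the difference between these responses. A gene was called where limma's Benjamini-Hochberg adjusted p over all genes tested was under 0.05 and the log2 difference was over 0.5 in size. With the replicate number as a block these counts were 2910, 40 and 400. Since Bcl2 was selected on this contrast, nothing is read from its place in them.

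Against CTRL of the same replicate, β-catenin KO held 67.5%, 65.9% and 74.4% of the Bcl2 level in low CHIR. In high CHIR it held 4.60, 7.26 and 7.47 times the CTRL level. The mean log2 differences were -0.53 in low and 2.65 in high CHIR, so that the direction against CTRL turned with the medium in all 3 replicates.

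**Figure D2:**
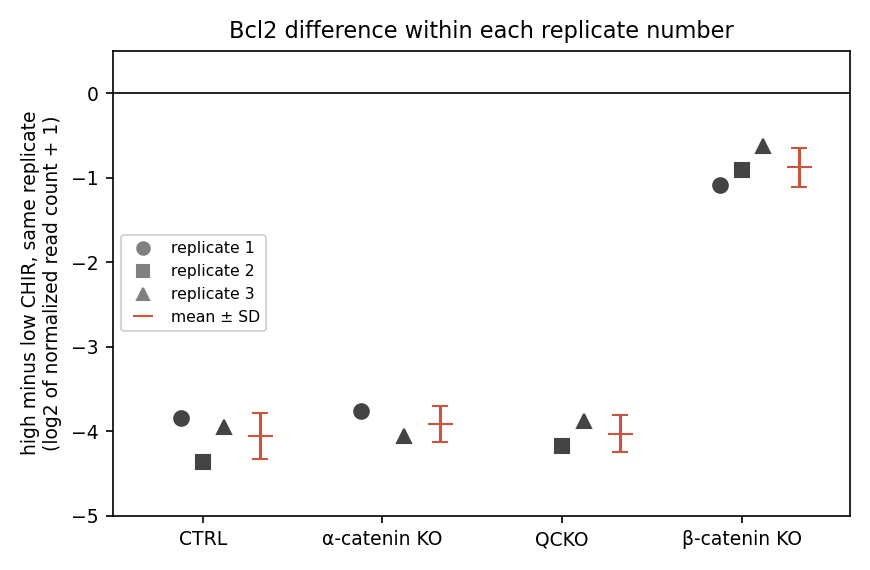
Difference in Bcl2 between the high and the low CHIR library of the same replicate number (log2 of normalized read count + 1), each point being 1 pair and the red mark the mean ± SD. The 7 pairs of the other cells lie between -4.37 and -3.76, and the 3 β-catenin KO pairs lie between -1.08 and -0.63.

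The α-catenin KO and QCKO responses were not used to choose Bcl2 and were tested. From low to high CHIR, Bcl2 in α-catenin KO fell by 3.91 on the log2 scale (standard error 0.28), a 15.1-fold lower level (95% interval of the log2 difference -4.50 to -3.32, limma adjusted p = 1.5e-06, lower in both pairs). The pairs gave -3.76 and -4.06. Of 16691 genes, 559 (3.35%) were called by CHIR in α-catenin KO, 304 of them lower in high CHIR (1.82%). Bcl2 had rank 46 by the size of the fall. The standard error pools the spread over all 20 libraries, those by which Bcl2 was chosen included, and with the 4 α-catenin KO libraries fitted alone the adjusted p was 0.0011 (limma).

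In QCKO, Bcl2 fell by 4.03 on the log2 scale (standard error 0.28), a 16.3-fold lower level (95% interval -4.62 to -3.44, limma adjusted p = 6.5e-07, lower in both pairs). The pairs gave -4.18 and -3.88. In QCKO 660 genes (3.95%) were called, 356 of them lower in high CHIR (2.13%), and Bcl2 had rank 57 by the size of the fall. With the 4 QCKO libraries fitted alone the adjusted p was 2.3e-05 (limma). With the replicate number as a block the calls were 1256 in QCKO and 1150 in α-catenin KO, and Bcl2 passed in both (limma adjusted p = 1.5e-07 and 3.8e-07).

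No difference in Bcl2 between QCKO and α-catenin KO passed the test. The CHIR response in QCKO minus that in α-catenin KO was -0.12 (95% interval -0.95 to 0.72, limma adjusted p = 1). In low CHIR QCKO minus α-catenin KO was 0.19 (95% interval -0.40 to 0.78, limma adjusted p = 1), although the QCKO values of 4158 and 3709 were both above the α-catenin KO values of 3490 and 3388. In high CHIR it was 0.08 (95% interval -0.51 to 0.66, limma adjusted p = 1), and the ranges overlapped. The groups share only replicate 3, so date and knockout are partly confounded, and with the replicate number as a block the differences were 0.30 in low and 0.19 in high CHIR (limma adjusted p = 1.00 in both). With 2 libraries a group, these intervals leave room for differences of up to 0.95 in size in the response. In each of these 3 comparisons limma called 0 of 16691 genes (0%), with 80, 194 and 147 genes at an unadjusted p under 0.05. edgeR called 0 in each, DESeq2 called 0, 2 and 1, and limma with the replicate number as a block called 0, 1 and 1.

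Both kinds of cells share their CTRL libraries as the comparator, so their values against CTRL stand side by side as a description. For α-catenin KO the log2 difference from CTRL was 0.02 in low CHIR and 0.16 in high CHIR. For QCKO it was 0.21 and 0.23. By replicate, the ratio to CTRL ran from 0.82 to 1.11 in α-catenin KO and from 0.97 to 1.55 in QCKO, whose highest ratio was that of replicate 2 in high CHIR, where CTRL had its lowest value.

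The β-catenin KO libraries were not alike in other Wnt-responsive genes. Wnt4 (a signal that drives the mesenchymal to epithelial transition) and Lef1 (a TCF/LEF factor and Wnt target), named after their values were seen, were both lowest in replicate 1. In β-catenin KO in low CHIR Wnt4 stood at 30.1, 831 and 634 normalized counts in replicates 1, 2 and 3, against 41.1 to 72.6 in CTRL. In β-catenin KO in high CHIR Wnt4 stood at 252, 2387 and 1200, against 4156 to 5401 in CTRL. Lef1 in β-catenin KO stood at 62.3, 660 and 532 in low CHIR, against 62.5 to 72.6 in CTRL. In high CHIR it stood at 93.6, 677 and 1020, against 948 to 1465 in CTRL, so replicate 3 lay inside the CTRL range. Bcl2 in the same high CHIR libraries of β-catenin KO was 1064, 1071 and 1844. Replicate 1 also had the lowest ratio to CTRL in Bcl2 in high CHIR (4.60 against 7.26 and 7.47). The part of this split in the Bcl2 values was not tested. Without both β-catenin KO libraries of replicate 1, the mean Bcl2 difference from low to high CHIR in β-catenin KO was -0.77, and 2 genes in place of 3 were called by CHIR there.

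Bcl2 belongs to a family whose members block or promote the permeabilization of mitochondria. Only genes that the study's comparison tables pair with an identifier could be found, which held for 6 of 25 family members. Those tables list genes that differed in some comparison of these same libraries, so the members found are not a fair sample of the family, and their share of calls cannot be set against that of all genes. Of the 5 besides Bcl2, 2 rose with CHIR in CTRL, where 10.7% of all genes were called, and 3 did not pass, with a median log2 difference of -0.17 against -0.01 over all genes. None passed in limma in QCKO, α-catenin KO or β-catenin KO, nor for the difference in this response between β-catenin KO and CTRL, with medians of 0.33, 0.61, -0.06 and -0.16 against -0.01, 0.01, 0.02 and 0.03 over all genes. Of all genes 3.95%, 3.35%, 0.018% and 0.671% were called in these comparisons. At an unadjusted p under 0.05 there were 2, 2, 0 and 2 of the 5. edgeR called 0 in each, DESeq2 called 2, 2, 0 and 0, and limma with the replicate number as a block called 2, 2, 0 and 1. For the level in β-catenin KO against CTRL, 1 was higher and 4 did not pass in high CHIR, where 10.5% of all genes were called. At an unadjusted p under 0.05 there were 3 of the 5 there, and edgeR and DESeq2 called 1 each. With the replicate number as a block 3 were called, of which Bmf and Pmaip1 were lower in β-catenin KO. The share of all genes in that fit is not given here. In low CHIR, where 0.0659% of all genes were called, none passed in limma, edgeR or DESeq2, with none at an unadjusted p under 0.05.

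Bcl2l1, which encodes the pro-survival protein Bcl-xL, did not show the fall of Bcl2. It stood at 1555, 1855 and 2129 normalized counts in CTRL in low CHIR and at 1846, 1141 and 2059 in high CHIR, and the ranges overlapped (log2 difference -0.17, limma adjusted p = 0.71). In β-catenin KO it stood at 1781, 2014 and 2347 in low CHIR and at 1712, 2664 and 2843 in high CHIR (0.21, limma adjusted p = 1.00).

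The BH3-only proteins are members of this family that promote cell death, and 3 of them had an identifier. Their binding to Bcl2 was not measured. Pmaip1, which encodes Noxa, rose in CTRL from 20.5, 80.2 and 51.9 normalized counts in low CHIR to 406, 357 and 373 in high CHIR. The groups did not overlap (log2 difference 3.07, limma adjusted p = 0.0065, higher in 3 of 3 replicates). In β-catenin KO Pmaip1 stood at 62.3, 140 and 100.1 in low CHIR and at 68.2, 282 and 121 in high CHIR, with overlapping ranges (0.47, limma adjusted p = 1.00). The difference between these responses was -2.60 (limma adjusted p = 0.30), and it passed with the replicate number as a block (limma adjusted p = 0.049). Pmaip1 went from 23.2 and 185 to 502 and 555 in α-catenin KO, and from 131 and 61.7 to 641 and 507 in QCKO. These differences missed the threshold (2.98, limma adjusted p = 0.051, and 2.65, limma adjusted p = 0.082) and passed with the replicate number as a block (limma adjusted p = 0.0037 and 0.0075).

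Bmf, which links damage to the cytoskeleton with cell death, rose in CTRL from 43.7, 148 and 42.3 normalized counts in low CHIR to 251, 392 and 335 in high CHIR. The log2 difference was 2.28 (limma adjusted p = 0.032), but the call was lost under 5 of 15 alternatives, which were edgeR and leaving out CTRL low CHIR replicate 1 or 3 or high CHIR replicate 2 or 3 (limma adjusted p = 0.074 to 0.12). In β-catenin KO Bmf stood at 104, 140 and 102 in low CHIR and at 57.8, 283 and 78.9 in high CHIR. These ranges overlapped (log2 difference -0.06, limma adjusted p = 1.00). Its differences in QCKO (2.84) and α-catenin KO (2.16) missed the threshold and passed with the replicate number as a block (limma adjusted p = 0.0046 and 0.028, against 0.056 and 0.19 without it).

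Bcl2l11, which encodes Bim, ran the other way. It stood at 926, 739 and 699 normalized counts in CTRL in low CHIR and at 354, 272 and 350 in high CHIR (log2 difference -1.27). The difference missed the threshold (limma adjusted p = 0.064) and passed with the replicate number as a block (limma adjusted p = 0.0078). In β-catenin KO Bcl2l11 stood at 2610, 796 and 685 in low CHIR and at 1677, 570 and 644 in high CHIR. Its level in high CHIR was higher in β-catenin KO than in CTRL (log2 difference 1.39, limma adjusted p = 0.045), a call that 7 of 16 alternatives ended. Without β-catenin KO high CHIR replicate 1 it was 0.90 (limma adjusted p = 0.19), and leaving out β-catenin KO replicate 3 or CTRL replicate 2 or 3 in high CHIR also ended the call (limma adjusted p = 0.055, 0.13 and 0.081). Both libraries of replicate 1 were far above the others, which also held for Fas, a death receptor named after its values were seen, at 375 against 130 and 78.5 in low CHIR and 223 against 39.9 and 42.5 in high CHIR. Bnip3l, a mitophagy receptor with a BH3-like region, overlapped between low and high CHIR in CTRL (5315, 7482 and 6599 against 4096, 10372 and 4069).

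**Figure D3:**
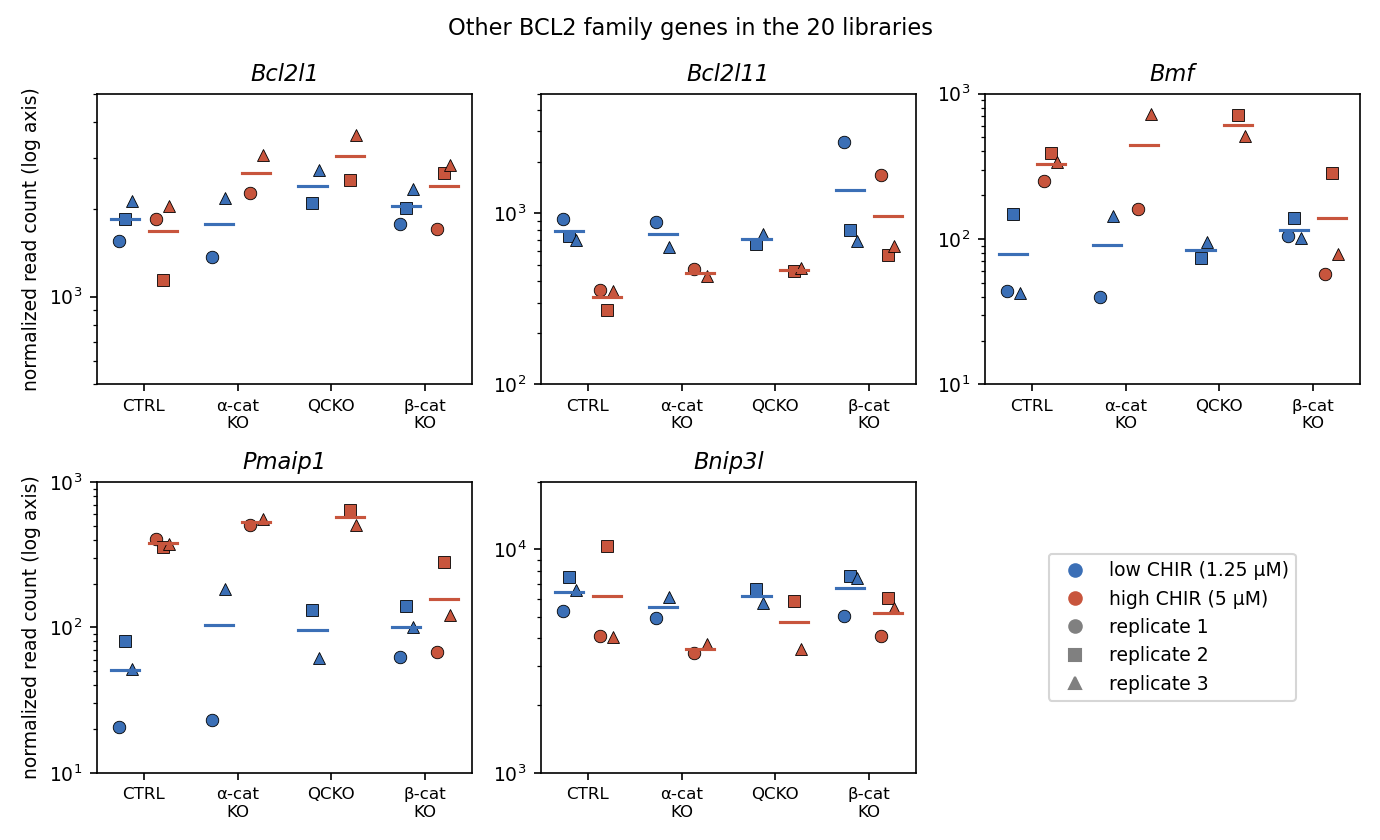
Normalized read count (log axes) of the 5 other BCL2 family genes with an identifier in each library, with low CHIR in blue, high CHIR in red, marker shapes for replicate numbers and bars for group means. Pmaip1 in CTRL goes from 20.5 to 80.2 in low CHIR to 357 to 406 in high CHIR, and the β-catenin KO libraries of replicate 1 stand apart in Bcl2l11 at 2610 and 1677.

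Of 31 other genes of the apoptosis pathway 12 had an identifier, under the same limit. The shares of all genes called by limma without a block are therefore given beside the counts, and nothing about the pathway is read from them. In CTRL 1 rose and 4 fell with CHIR (10.7% of all genes were called), with a median of -0.79 against -0.01 over all genes. With the replicate number as a block 8 in place of 5 were called, in a fit that also called more of all genes. In β-catenin KO none passed in limma (median 0.09 against 0.02, with 0.018% of all genes called), in edgeR or in DESeq2, and none had an unadjusted p under 0.05. In α-catenin KO 1 fell (median -0.26 against 0.01, with 3.35% of all genes called) and in QCKO 1 fell (median -0.44 against -0.01, with 3.95% called). For the difference in response between β-catenin KO and CTRL none passed in limma (median 0.64 against 0.03, with 0.671% of all genes called). There were 5 at an unadjusted p under 0.05, 0 called in edgeR and 0 in DESeq2. For the level in high CHIR, 4 of the 12 were higher in β-catenin KO than in CTRL and none lower (median 0.87 against 0.02, with 10.5% of all genes called). With the replicate number as a block 7 were called, and the share of all genes in that fit is not given here. In low CHIR, where 0.0659% of all genes were called, none passed in limma, with 2 at an unadjusted p under 0.05, nor in edgeR or DESeq2.

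Among the partners of Bcl2, Bag1, a co-chaperone that binds it, rose in CTRL from 248, 274 and 309 normalized counts to 367, 653 and 643 (log2 difference 0.96, limma adjusted p = 0.0090). Of 15 alternatives 1 ended that call, the fit of only the groups compared (limma adjusted p = 0.12). Itpr2 encodes one of the calcium release channels of the endoplasmic reticulum on which Bcl2 also acts. It fell in CTRL from 253, 290 and 286 to 111, 97.2 and 114 (log2 difference -1.35, limma adjusted p = 0.0018). Itpr2 also fell in α-catenin KO (-1.32, limma adjusted p = 0.018) and QCKO (-1.44, limma adjusted p = 0.0088), with -0.40 in β-catenin KO (limma adjusted p = 1.00). Its relative Itpr1 fell in CTRL from 293, 304 and 303 to 184, 109 and 127 (-1.13, limma adjusted p = 0.028), a call that 7 of 15 alternatives ended, among them leaving out any CTRL library in low CHIR or replicate 2 or 3 in high CHIR (limma adjusted p = 0.063 to 0.10). In QCKO and α-catenin KO Itpr1 gave -1.17 and -1.10, which missed the threshold but passed with the replicate number as a block (limma adjusted p = 0.022 and 0.033, against 0.11 and 0.15 without it). In β-catenin KO in high CHIR Itpr1 stood at 530.3, 268 and 377, higher than in CTRL (1.46, limma adjusted p = 0.0079), a call lost in 1 of 16 alternatives, the fit of only the groups compared (limma adjusted p = 0.087). Itpr2 stood there at 206, 176 and 201, also higher than in CTRL (0.85, limma adjusted p = 0.033), a call that 9 of 16 alternatives ended. Leaving out any β-catenin KO library, or CTRL replicate 2 or 3, in high CHIR was among them (limma adjusted p = 0.056 to 0.10).

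Among death receptors and their adaptors, Tnfrsf1a, the TNF receptor that can signal death, fell in CTRL from 2214, 2652 and 2478 normalized counts to 1302, 468 and 1209 (-1.43, limma adjusted p = 0.0037), a call lost in the fit of only the groups compared (limma adjusted p = 0.077). In β-catenin KO in high CHIR Tnfrsf1a stood at 2426, 2561 and 1948, higher than in CTRL (1.35, limma adjusted p = 0.0073), a call lost in 1 of 16 alternatives, again the fit of only the groups compared (limma adjusted p = 0.14). Without CTRL high CHIR replicate 2, at 468, the difference was 0.87 (limma adjusted p = 0.0055). Fadd, the adaptor of death receptors, went in CTRL from 393, 459 and 274 to 328, 110.0 and 172, with overlapping ranges (log2 difference -0.99, limma adjusted p = 0.039), a call that 7 of 15 alternatives ended. Without CTRL high CHIR replicate 2 it was -0.62 (limma adjusted p = 0.17), and leaving out low CHIR replicate 1 or 2 or high CHIR replicate 3 also ended it (limma adjusted p = 0.11, 0.14 and 0.091).

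**Figure D4:**
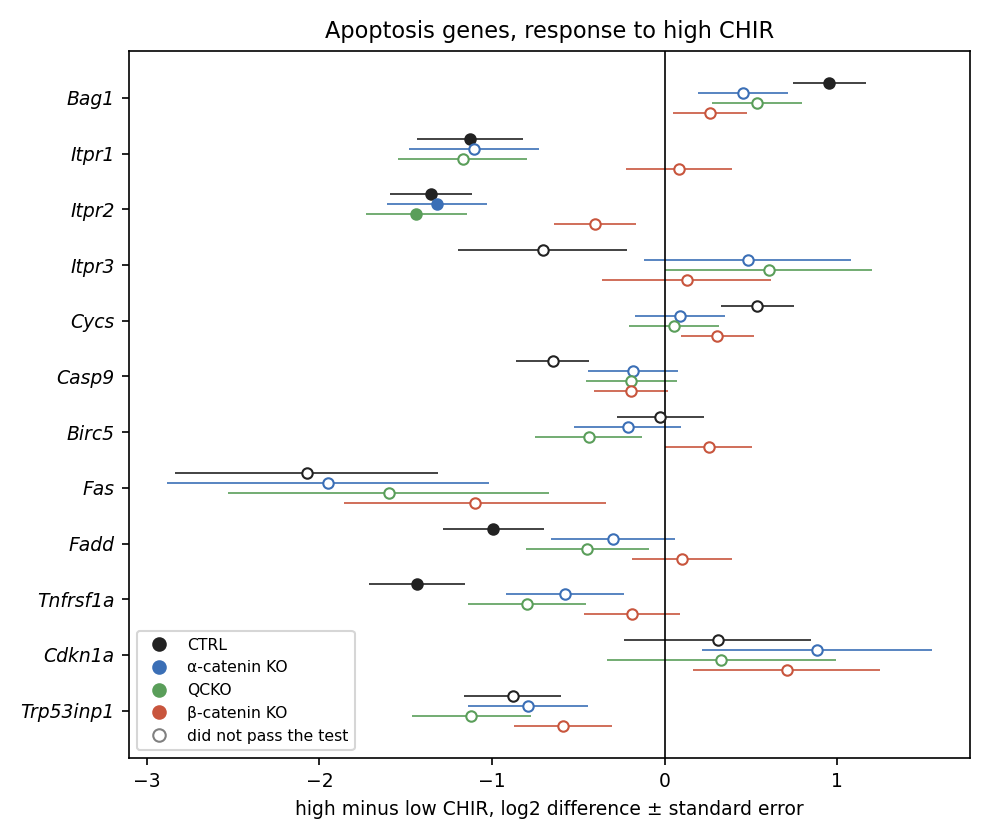
Difference from low to high CHIR (log2, ± standard error) of the 12 apoptosis genes with an identifier in each kind of cell, with filled points for those that passed the test. Itpr2 is filled at -1.35 in CTRL, -1.44 in QCKO and -1.32 in α-catenin KO and open in β-catenin KO at -0.40.

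The genes whose levels ran most like Bcl2 were found by the Pearson correlation of log2 values over the 20 libraries, among 2868 genes with a symbol and a mean of at least 100. The libraries share their groups, so these values describe the pattern and carry no test. The 10 highest were Ntsr1 (0.98), Wt1 (0.98), Rdh10 (0.98), Sulf2 (0.98), Bbx (0.97), Fat3 (0.97), Sipa1l1 (0.97), Elovl6 (0.97), Robo2 (0.97) and Six2 (0.96). Among all 10923 genes with that mean, named or not, no other reached the value of the tenth. Since 128 genes with a symbol lay above 0.90, the ranks within the list were close, and the rank correlation kept 2 of the 10 among its own 10 highest.

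Wt1 and Six2 are transcription factors of the nephron progenitor, Six2 being the factor that holds it undifferentiated. Six2 went from a mean of 1375 ± 377 (SD, n = 3) in CTRL in low CHIR to 72.4 ± 10.3 (SD, n = 3) in high CHIR. In β-catenin KO Six2 went from 993 ± 232 (SD, n = 3) to 558 ± 210 (SD, n = 3). Its mean was thus below CTRL in low CHIR and above it in high CHIR, as for Bcl2. Unlike those of Bcl2, its ranges in low CHIR overlapped (773 to 1236 in β-catenin KO against 943 to 1642 in CTRL). Wt1 went from a mean of 855 to 212 in CTRL and from 796 to 663 in β-catenin KO.

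Rdh10 makes retinaldehyde for retinoic acid synthesis, and went from a mean of 2220 to 95.4 in CTRL and from 1814 to 1333 in β-catenin KO. Robo2, a receptor for Slit, which limits where the ureteric bud forms, went from 5952 to 370 in CTRL and from 5694 to 1978 in β-catenin KO. Ntsr1, a neurotensin receptor, was at 0 in all CTRL libraries in high CHIR, where the mean in low CHIR was 458, and went from 260 to 87.5 in β-catenin KO.

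The 5 genes that ran most against Bcl2 were Tnnt3 (-0.97), Scube3 (-0.97), Trappc9 (-0.96), Tppp3 (-0.96) and Ntsr2 (-0.95). Scube3, a secreted co-receptor, went from a mean of 85.1 to 1106 in CTRL and from 147 to 392 in β-catenin KO. Ntsr2, a second neurotensin receptor, went from 0.30 to 589 in CTRL and from 10.2 to 54.1 in β-catenin KO.

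**Figure D5:**
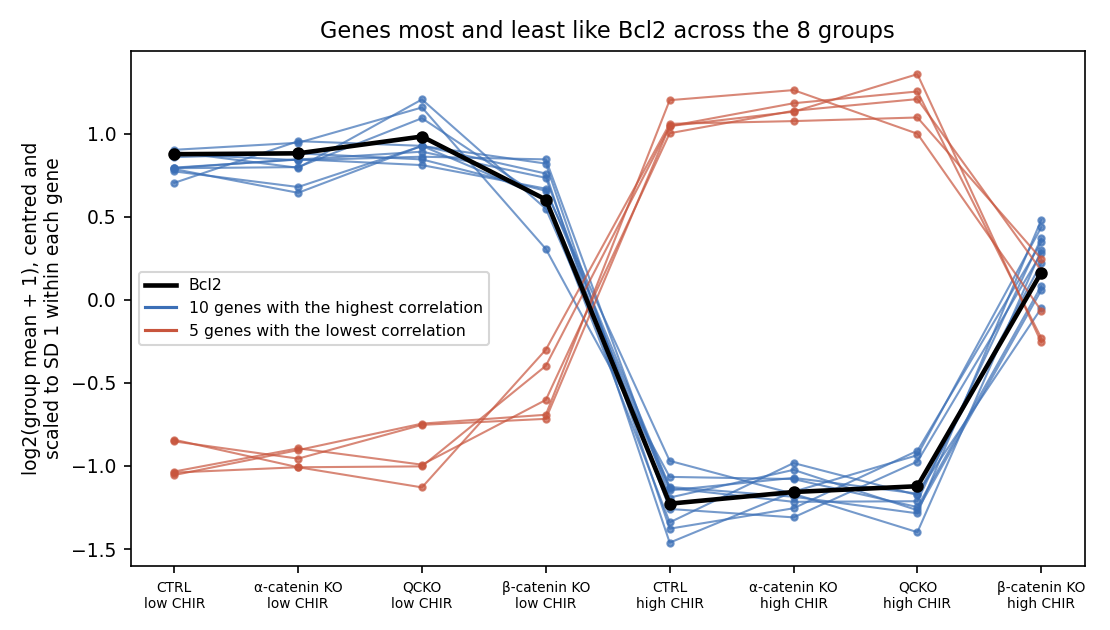
Profiles over the 8 groups of Bcl2 (black), the 10 genes with the highest correlation with it (blue) and the 5 with the lowest (red), as log2(group mean + 1) centred and scaled within each gene. The blue lines go down from low to high CHIR in all 4 kinds of cells, and in high CHIR all 10 are highest in β-catenin KO.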

How the data were processed

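The deposited table holds normalized counts per gene for 20 libraries, a signal the authors made by dividing read counts by a size factor per library. The submitters' processing notes name bcl2fastq, STAR, Subread/featureCounts, Salmon and DESeq2, and the builds GRCm38, mm10 and GRCh38, without the role of each. Dividing by the worth of 1 read gave whole reads (within 0.1) for all values to the precision printed (100.0%), and 18124772 to 28472412 reads per library. In 2 libraries the size factor was within 1% of 1, where this check tells less. Symbols came from the deposited comparison tables (4316 of 31130 genes). Their fold change and p-value columns were not used.

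limma (version 3.58.1, R 4.3.3) was fitted to log2(normalized count + 1) over all 20 libraries and 8 group means, for 16691 genes with a mean of at least 10, and p-values were adjusted by Benjamini-Hochberg over all of them. edgeR (version 4.0.16, quasi-likelihood, TMM) and DESeq2 (version 1.42.0) were run on the recovered reads as alternatives. The fits were also run on simulated counts for the CHIR contrast in QCKO, without an effect of date, and nothing is read from that run here. Intervals cover 95%. Fold changes on this scale understate the change of low genes.

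The replicate number is the date in the sample titles, so the labels pair the libraries. Deviations from the group means correlated between the low and high CHIR libraries of 1 number with r of 0.05 to 0.72. The study calls the sequenced samples biological replicates. Whether libraries of 1 group came from separate animals is not given in the sources used here, so p-values measure the spread between these samples.

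Named genes were Bcl2, the BCL2 family members with an identifier, apoptosis genes called in at least 1 of 5 CHIR contrasts, and the 10 genes most and 5 least correlated with Bcl2. Fas, Wnt4, Lef1 and Cdkn1a were named after their values were seen. Some members of the apoptosis list are not reported here and enter none of its counts. The members and lists were chosen with earlier results of these data known. Promoter sequences are from RefSeq (GRCm38.p6), matched by symbol.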

Additional observations from a re-analysis of the deposited data

How the results depend on the processing

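The fall of Bcl2 with CHIR passed under all 13 alternatives in α-catenin KO (log2 -4.08 to -3.74, adjusted p at most 0.0011, with the groups compared fitted alone) and in QCKO (-4.11 to -3.95, adjusted p at most 3.7e-05). Where 1 of 2 libraries was left out, the remaining 1 was assumed to vary like the other groups. QCKO minus α-catenin KO never passed, and its sign turned when 1 library was left out, with a range of -0.29 to 0.056 for the response (0.056 without α-catenin KO high CHIR replicate 1) and -0.097 to 0.25 in high CHIR (-0.097 without α-catenin KO high CHIR replicate 3). Among the descriptions of Bcl2, the response in β-catenin KO ranged from -1.14 (without high CHIR replicate 3) to -0.74, and the difference of QCKO from CTRL in the response from -0.20 (without CTRL high CHIR replicate 2) to 0.17, when 1 library was left out.

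Counts of called genes depended on the setting, and the cause was not tested. With the replicate block they were 2910 in CTRL, 40 in β-catenin KO, 1150 in α-catenin KO, 1256 in QCKO and 400 for the difference between β-catenin KO and CTRL. The paired fit changed no call of Bcl2. Among list genes it lost no call, and beyond those given beside their values it gained Casp9, Fas and Trp53inp1 in CTRL, and Bmf, Pmaip1, Fas, Fadd and Trp53inp1 for β-catenin KO against CTRL in high CHIR. With only the groups compared they were 761 in CTRL, 0 in β-catenin KO (limma, with 659 genes at an unadjusted p under 0.05), 1855 in QCKO and 50 for the difference. DESeq2 on recovered reads gave 57 in β-catenin KO, 874 in α-catenin KO, 1034 in QCKO and 328 for the difference. Without a filter on low values β-catenin KO had 7. Leaving out 1 library gave 1019 to 3107 in CTRL (1019 and 1064 without low CHIR replicates 1 and 2, 3107 and 1178 without high CHIR replicates 1 and 2), 1 to 4 in β-catenin KO (1 without low CHIR replicate 1, high CHIR replicate 2 or high CHIR replicate 3), 166 to 275 in α-catenin KO and 245 to 265 in QCKO, whichever library it was. For the difference it gave 46 to 207, with 46, 178 and 68 without CTRL low CHIR replicate 3, high CHIR replicate 1 and high CHIR replicate 3, and 207, 50, 54, 67 and 67 without β-catenin KO low CHIR replicates 1, 2 and 3 and high CHIR replicates 1 and 3.

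Of 610 values of named family and apoptosis genes under alternatives, 541 kept direction and call, 47 lost the call, 6 gained it and 16 turned sign, the last all for values that had not passed. Bmf in β-catenin KO turned to 0.27 with edgeR and DESeq2, to 0.32 without both replicate 1 libraries (chosen after seeing the data), and ranged from -0.75 to 0.39 when 1 library was left out. The ranges when 1 library was left out were -0.34 to 0.090 for Bcl2l1 in CTRL, -0.65 to 0.026 for Bnip3l in CTRL and -0.39 to 0.29 for its difference between β-catenin KO and CTRL, -0.89 to 0.20 for Bcl2l11 in β-catenin KO, -0.071 to 0.94 for Pmaip1 in β-catenin KO and -0.16 to 0.50 for Itpr1 in β-catenin KO. Of the 10 genes most like Bcl2, 2 were shared with the rank correlation, 2 with the correlation over group means and 5 after the mean of each title date was removed, and of the 5 least like it 1, 0 and 3. All alternatives were planned, other than that without both replicate 1 libraries and those for the level of list genes in β-catenin KO against CTRL in high CHIR, which were added after seeing the data. At 138 to 315 reads, counting error of 1 library in Bcl2 in high CHIR is 5.63% to 8.51% in CTRL, α-catenin KO and QCKO.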

Other observations

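Cdkn1a, the cell cycle inhibitor that p53 switches on, was named after its values were seen. It stood at 826 to 2532 normalized counts in CTRL in low CHIR and at 1458 to 2877 in high CHIR. In β-catenin KO Cdkn1a stood at 1965, 6502 and 4510 in low CHIR and at 2373, 10747 and 9876 in high CHIR (replicates 1, 2 and 3), so replicates 2 and 3 were above all CTRL libraries and replicate 1 was not. In high CHIR the difference of β-catenin KO from CTRL was 1.74 on the log2 scale (limma adjusted p = 0.0499), a call that 8 of 16 alternatives ended. Leaving out any CTRL library, or β-catenin KO replicate 2 or 3, was among them (limma adjusted p = 0.058 to 0.17). All 4 QCKO libraries were also above all CTRL libraries (low CHIR 3121 and 4033, high CHIR 4359 and 4558). The α-catenin KO libraries had 1136 and 2029 with low CHIR, and 2969 and 2643 with high CHIR, of which 1 was above all CTRL libraries. Replicate 1 was the lowest β-catenin KO library in Cdkn1a and the highest in Bcl2l11 and Fas, in both media.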
